A study of Mus musculus with 6 samples.

Results

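PTBP2 crosslinking in cortex that carried the Rosa-PTBP1 transgene with Emx1-cre was compared with PTBP2 crosslinking in wild-type cortex. The comparison uses 2 of the 6 libraries of the series, chosen by antibody and genotype. Both came from neocortex of mice on a mixed BL6/129Sv background at postnatal day 1, with a PTBP2 polyclonal antibody used on nuclear lysate after ultraviolet crosslinking. The wild-type library is labelled only WT, and the labels name no recombinase for it. The other is labelled Rosa-PTBP1; Emx1-cre, so effects of the transgene and of the recombinase cannot be told apart. Whether the transgene needs the recombinase to be expressed is not stated in the labels. The labels do not say how many animals were pooled, and each genotype has 1 library. There is therefore no test between genotypes, and intervals given below cover counting error only. The other 4 libraries, made with FLAG antibody from wild-type cortex (2 replicates), from Rosa-PTBP1; Emx1-cre cortex (1) and from Rosa-PTBP1; PTBP2 loxp/loxp; Emx1-Cre cortex (1, called the loxp library below), serve to show FLAG-PTBP1 and antibody background at the same places.

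PTBP1 and PTBP2 are paralogous RNA-binding proteins that recognise pyrimidine-rich stretches of RNA and mostly act as repressors of nearby exons. PTBP1 is found in most cells and in neural progenitors, and PTBP2 takes its place as neurons form. PTBP1 also lowers PTBP2 by changing the splicing of its transcript. Emx1-cre is active in the lineage of cortical excitatory neurons and not in interneurons that migrate into the cortex, so PTBP2 from cells that lack the recombinase is also captured. CLIP recovers short RNA pieces that were covalently linked to the protein, and their piling up at 1 place marks a site.

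The PTBP2 lists held 155447 distinct read intervals in wild type and 74416 in Rosa-PTBP1. A distinct interval is a unique combination of chromosome, strand, start and end. Chromosomes 4 to 9 and X were left out because the Rosa-PTBP1 list is nearly empty there, which kept 104086 and 68198 intervals. Of the kept intervals, 31448 in wild type and 41724 in Rosa-PTBP1 carried the run name XA041, and 72638 and 26474 the run name XB028. The median interval was 38 bases long in wild type and 40 in Rosa-PTBP1. Touching intervals on 1 strand, from either library, were merged into 34405 union sites. Positions are those of the deposited lists, on the mm9 build. No gene model or genome sequence of mm9 was used here, so sites are given by position and strand, with no gene, exon or motif, and no cell type marker could be checked.

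Most places listed for PTBP2 were listed in 1 genotype only, and many of them held a single interval. Wild type had intervals at 17236 union sites and Rosa-PTBP1 at 20553, and 3384 sites held both. Sites made of a single Rosa-PTBP1 interval numbered 9258, and 8182 of those intervals (88.4%) came from run XA041. Single wild-type intervals made 3815 sites, of which 1750 intervals (45.9%) came from XA041. Of all kept intervals, XA041 gave 41724 of 68198 in Rosa-PTBP1 and 31448 of 104086 in wild type. The 2 percentages therefore also carry the run mix of each library. These single-interval sites took 13.6% of all Rosa-PTBP1 intervals and 3.67% of wild-type intervals. Among sites of 5 or more intervals called within each library, 64.3% of 2768 Rosa-PTBP1 sites overlapped a wild-type site (exact Clopper-Pearson 95% interval 62.5 to 66.1). The same share of the 6417 wild-type sites was 27.1% (26.0 to 28.2). The runs differed in this: within XA041 it was 47.7% of Rosa-PTBP1 and 53.1% of wild-type sites, and within XB028, where wild type is the deeper, 84.5% and 20.4%. Identical intervals, with the same start and end in both libraries, were 1.49% of wild-type intervals in XA041 and 1.54% in XB028, and 2.03% and 2.81% of Rosa-PTBP1 intervals.

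The comparison of levels used the 1211 union sites that held 20 or more intervals in both libraries together. They were 3.52% of the sites and held 42.0% of wild-type and 39.6% of Rosa-PTBP1 intervals. Their median length was 161 bases, 548 lay on the plus strand and 663 on the minus strand. A level is a site's share of its library, as intervals per 10000, and a difference is the log2 ratio of the shares, Rosa-PTBP1 over wild type, with a pseudocount of 0.5. Because a share is relative to its own library, an equal loss of PTBP2 at all sites would not show. The abundance of the RNA was not measured, so fewer cells with a transcript, less of it per cell and less PTBP2 on it cannot be told apart.

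At 838 of the 1211 sites the PTBP2 share in the 2 genotypes lay within 2-fold. The share was 2-fold or more lower in Rosa-PTBP1 at 261 sites (21.6%) and 2-fold or more higher at 112 (9.25%). Of the 261 lower sites, 64 (5.28% of the sites compared) were listed at 0 in Rosa-PTBP1. No site was listed at 0 in wild type. The median difference over all sites was -0.11. Of the 1147 sites listed in both, 197 (17.2%) were lower and 112 (9.76%) higher, and their median was -0.06, with quartiles at -0.72 and 0.50. The counting interval lay wholly below an equal share in both runs at 73 sites (6.03%), of which 21 were listed in Rosa-PTBP1, and wholly above it in both runs at 18 (1.49%). The larger number of lower sites depended on how sites and totals were taken. When single-interval sites were left out of the library totals, 223 sites were lower and 171 higher. When sites were taken by their mean share, which does not favour the deeper library, 196 were lower and 141 higher. Both of these alternatives were added after seeing the data.

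**Figure D1:**
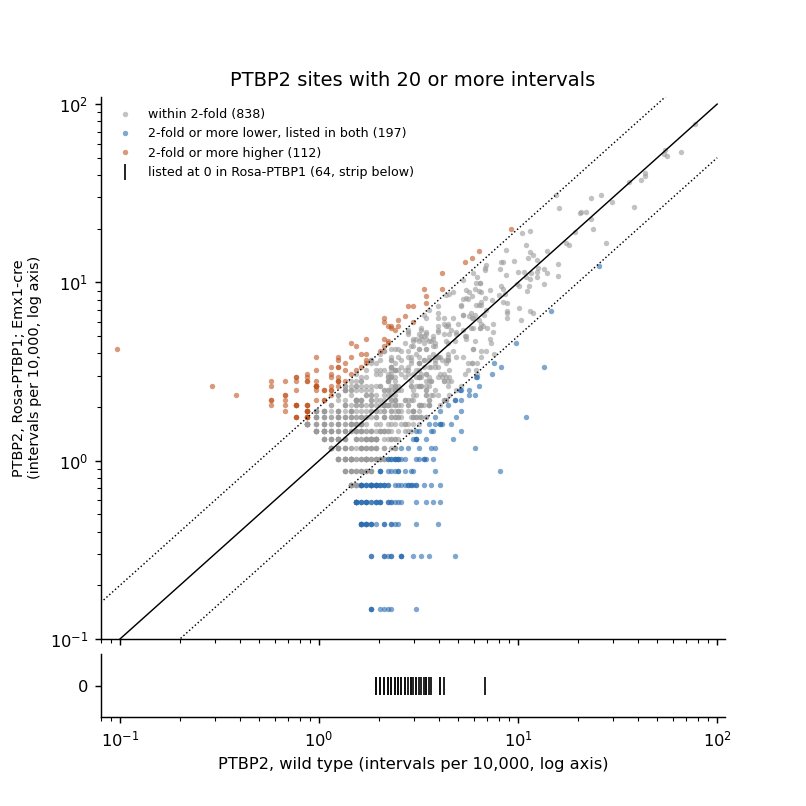
PTBP2 intervals per 10000 in wild type (x, log axis) and Rosa-PTBP1; Emx1-cre (y, log axis) at the 1211 sites, 1 point per site, with the line of equality and dotted lines at 2-fold. The strip below the plot marks the 64 sites listed at 0 in Rosa-PTBP1, and the horizontal rows of points at low levels are sites of few whole intervals.

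The 2 sequencing runs gave different splits. In sites rebuilt from XA041 alone 27 of 324 were lower (8.33%) and 22 higher (6.79%). From XB028 alone 99 of 678 were lower (14.6%) and 103 higher (15.2%). Over the 1211 sites the median difference was -0.41 in XA041 and 0.18 in XB028, so the runs were shifted against each other as a whole. Of the 197 lower sites still listed in Rosa-PTBP1, 192 lay on the lower side in both runs and 84 (7.32% of the 1147 sites listed in both) were 2-fold or more lower in both. The 64 sites listed at 0 are at 0 in both runs by that call, so their runs add nothing. Of the 112 higher sites, 108 lay on the higher side in both runs and 53 (4.62%) passed 2-fold in both. Over all 1211 sites, 808 (66.7%) lay on the same side in both runs and pooled. The calls were made on the 2 runs added together, so agreement in side at called sites is largely set by the call. Each distinct interval carries the name of 1 read and so of 1 run, and the lists cover both runs together, so the runs are not independent callings of sites.

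The spread between genotypes was set beside the spread between the 2 runs of 1 library, each over its own sites of 20 or more intervals that were listed on both sides, centred on the median of those sites. Between the wild-type runs 8.87% of 733 sites lay 2-fold or more from the median, and the SD of log2 was 0.56. Between the Rosa-PTBP1 runs it was 7.71% of 363 sites, with an SD of 0.55. Between genotypes it was 17.0% of 348 sites within XA041 (SD 0.79) and 26.9% of 650 sites within XB028 (SD 0.92). Sites at 0 on 1 side, of which XB028 had 31, are left out of these values. The runs of a library share 1 list made from both, while the genotypes were listed separately, so the spreads are not like for like. How far 2 animals of 1 genotype would differ is not known. Across the 1211 sites, Spearman's rho of interval counts was 0.73 between wild-type runs, 0.77 between Rosa-PTBP1 runs, 0.46 between genotypes in XA041 and 0.42 in XB028. These are descriptions over sites that share libraries and depth. The sites were chosen by the sum of both genotypes, which can set the counts of the genotypes against each other and lower their rho. The values between genotypes and between runs are therefore not like for like.

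**Figure D2:**
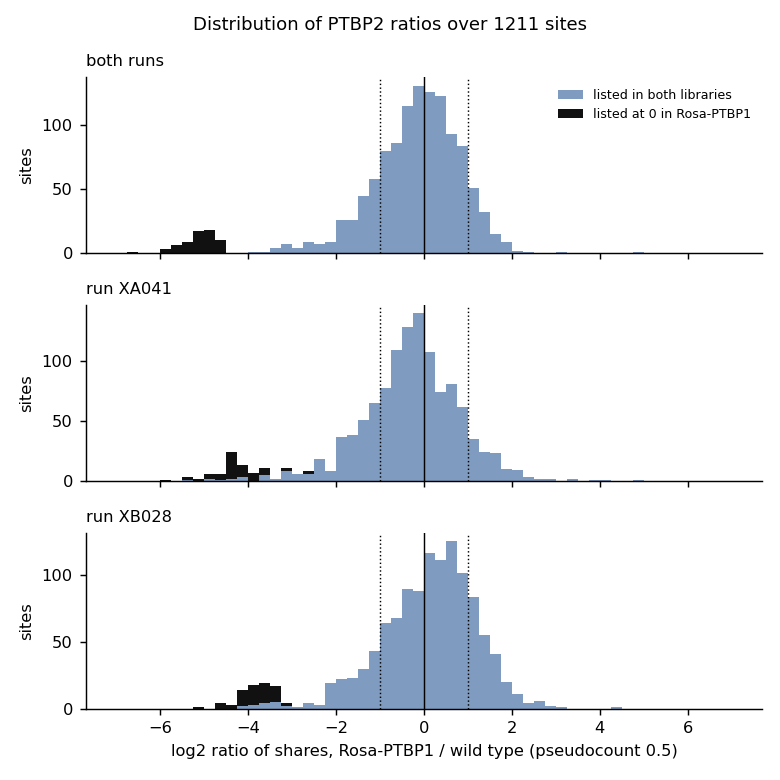
Histograms of the log2 ratio of PTBP2 shares, Rosa-PTBP1 over wild type, at the 1211 sites, from both runs and from each run (dotted lines at 2-fold). Black bars are the 64 sites listed at 0 in Rosa-PTBP1, whose place on the axis comes from the pseudocount; with both runs they stand apart from the rest.

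At sites well filled in wild type, each single Rosa-PTBP1 count from 1 to 6 was rarer than 0. Wild type held 20 or more intervals at 733 sites. At these sites the Rosa-PTBP1 count was 0 at 64, 1 at 5, 2 at 12 and 3 at 9. It was 4 at 17 sites, 5 at 27 and 6 at 13. The 64 sites held 20 to 71 wild-type intervals, with a median of 24.5. The lists hold only reads called significant, by a rule that is not given beyond a false discovery rate. Reads that were not called may have been present where a site is listed at 0, so its fold is left out. In the other direction, 363 sites held 20 or more Rosa-PTBP1 intervals, and wild type held at least 8 at each of them except 1 site with a single interval.

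Most missing listings lay near a place where PTBP2 was listed in Rosa-PTBP1. Of the 64 sites, 24 lay within 100 bases of a Rosa-PTBP1 interval on the same strand and 51 within 1000 bases. A further 3 lay between 1000 and 10000 bases away, and 10 lay further. The median distance was 147 bases. Each distance is to the nearest Rosa-PTBP1 interval, and both sides were measured only for the 10 lowest sites. Whether the 64 sites lay inside listed regions or at their edges is therefore not known. How often other places lie this close to a Rosa-PTBP1 interval was not measured.

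The site listed at 0 with most wild-type intervals was chr13:46018350-46018821 on the minus strand. It held 71 wild-type intervals, 22 in XA041 and 49 in XB028. Its nearest Rosa-PTBP1 interval lay 768898 bases away, so a missing stretch of the list and a difference at the site cannot be told apart. FLAG-PTBP1 was low there, with 6 intervals in Rosa-PTBP1 and 0 in the loxp library.

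The next sites differed from it in having Rosa-PTBP1 intervals close by. The plus-strand site chr16:41614880-41615151 held 44 wild-type intervals (8 in XA041, 36 in XB028) and lay 14 bases from a Rosa-PTBP1 interval. Joined with neighbours within 50 bases, it was no longer at 0 and its difference was -2.69. FLAG-PTBP1 held 54 intervals there in Rosa-PTBP1 and 45 in the loxp library. The plus-strand site chr3:29148237-29148482 held 42 wild-type intervals (9 and 33), lay 13 bases from a Rosa-PTBP1 interval and had a difference of -2.49 when joined. The minus-strand site chr17:91364893-91365077 held 37 (8 and 29), 53 bases away. Joined with its neighbours within 50 bases, the chromosome 17 site had a difference of -1.18. At these 3 sites Rosa-PTBP1 intervals lay on both sides of the gap: 60 bases before and 14 after the chromosome 16 site by coordinate, 154 and 13 on chromosome 3, and 53 and 181 on chromosome 17.

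The minus-strand site chr11:102393456-102393624 held 42 wild-type intervals, 10 in XA041 and 32 in XB028, and stood alone, 42478 bases from a Rosa-PTBP1 interval. FLAG-PTBP1 held 35 and 44 intervals there in Rosa-PTBP1 and in the loxp library. On chromosome 14 the minus-strand sites chr14:124926527-124926700 and chr14:124779084-124779366 held 38 (11 and 27) and 36 (14 and 22) wild-type intervals. FLAG-PTBP1 was present at both in Rosa-PTBP1, with 37 and 63 intervals. On chromosome 19 the minus-strand site chr19:28054234-28054462 held 35 (9 and 26), with 19 FLAG-PTBP1 intervals. Its nearest Rosa-PTBP1 interval lay 144 bases away, and joined with neighbours within 50 bases it had a difference of -1.33. Both wild-type FLAG libraries were at 0 at these 4 sites.

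The last 2 of the 10 lowest sites had limits of their own. The minus-strand site chr10:31978055-31978309 held 36 wild-type intervals (4 and 32). The FLAG Rosa-PTBP1 list is sparse on chromosome 10, and the loxp library held 10 intervals there. The plus-strand site chr12:110803523-110803711 also held 36 (15 and 21), and was the only one of the 10 with antibody background, at 4 and 10 intervals in wild-type FLAG replicates 1 and 2.

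Among sites still listed in Rosa-PTBP1, those with the lowest ratios kept 1 to 6 intervals. The best filled of these was the plus-strand site chr3:29147884-29148233, just upstream of the chromosome 3 site above. It held 84 wild-type intervals (30 in XA041, 54 in XB028) against 6 in Rosa-PTBP1 (2 and 4), a difference of -3.09 (95% interval -4.68 to -2.02). The plus-strand site chr12:110783405-110783544 held 50 against 2, a difference of -3.73 (-7.12 to -2.11). Wild-type FLAG replicate 2 held 47 intervals there, so this place also gathers background. The minus-strand site chr2:7278003-7278222 held 32 against 1, a difference of -3.83 (-9.74 to -1.81).

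The 112 higher sites held a median of 11.5 wild-type and 19 Rosa-PTBP1 intervals, against 25 and 5 at lower sites still listed. The largest difference in this direction lay at chr17:74970983-74971177 on the plus strand, with 1 wild-type interval (in XB028) against 29 in Rosa-PTBP1 (18 in XA041, 11 in XB028). The difference was 4.91 (2.88 to 10.8), and it was 4.80 in XA041 and 4.39 in XB028. The minus-strand site chr2:6790319-6790561 followed, with 3 wild-type intervals, all in XB028, against 18 (10 and 8), a difference of 3.01 (1.42 to 5.60). The plus-strand site chr19:45511492-45511692 held 4 (2 and 2) against 16 (9 and 7), a difference of 2.48 (0.98 to 4.65). Sites had to lie on the same side in both runs to be named.

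The other 7 of the 10 highest sites held 6 to 10 wild-type and 15 to 26 Rosa-PTBP1 intervals, with differences from 1.86 to 2.19. They lay on chromosomes 2, 14, 15, 16, 17 and 18. The fullest of them was chr15:59321754-59321936 on the plus strand, with 10 wild-type intervals (3 and 7) against 26 (20 and 6). Its difference was 1.95 (0.89 to 3.21), and in XB028 alone, with sites rebuilt, it was 0.56. The plus-strand site chr16:77645380-77645575 held 8 (4 and 4) against 20 (8 and 12), and with sites rebuilt from XA041 alone its direction turned (-0.77).

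**Figure D3:**
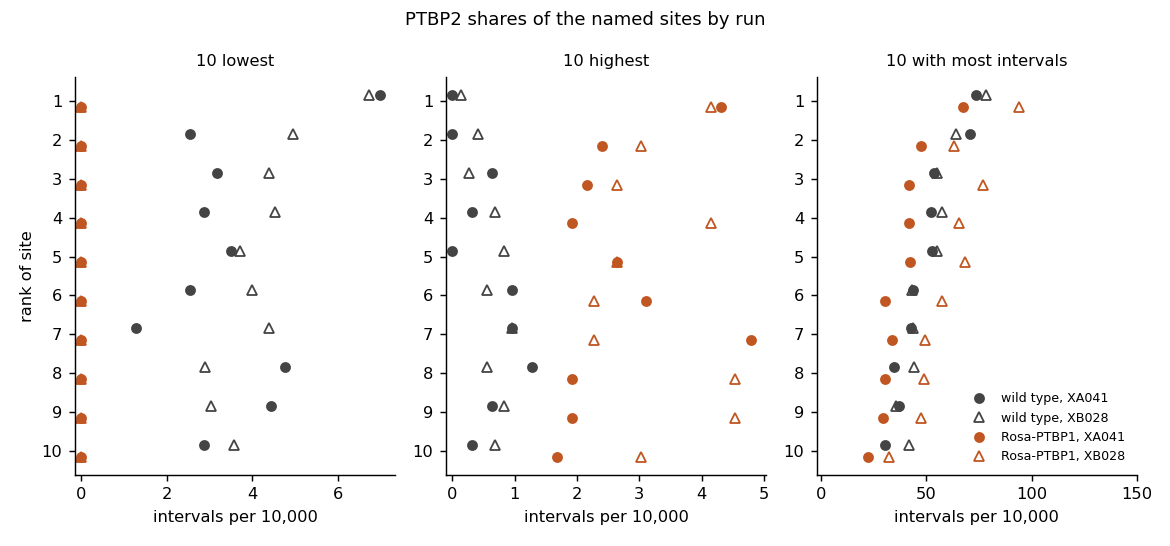
PTBP2 intervals per 10000 of each run (filled circles XA041, open triangles XB028) in wild type (grey) and Rosa-PTBP1 (orange) at the 10 lowest sites, the 10 highest and the 10 with most intervals, ranked from 1 at the top. The 10 lowest are all at 0 in Rosa-PTBP1, the 10 highest lie above wild type in both runs, as their choice required, and at the 10 fullest the Rosa-PTBP1 XA041 points lie below and most XB028 points above wild type.

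The 10 fullest PTBP2 sites all lay within 2-fold between genotypes. The site with most intervals was chr19:5799256-5799873 on the minus strand, with 801 in wild type (232 in XA041, 569 in XB028) and 530 in Rosa-PTBP1 (281 and 249). This was 77.0 and 77.7 per 10000, a difference of 0.01 (-0.15 to 0.17). Wild-type FLAG replicates 1 and 2 held 114 and 912 intervals there, or 20.5 and 502 per 10000. The place is thus also high in background. The plus-strand site chr2:158208887-158209353 held 689 and 365, or 66.2 and 53.5 per 10000, a difference of -0.31 (-0.49 to -0.12). It was at 0 in both wild-type FLAG replicates. The plus-strand site chr10:69072372-69072997 held 580 and 348, a difference of -0.13 (-0.32 to 0.07). On chromosome 18 the plus-strand site chr18:37189292-37190469 held 564 and 358, a difference of -0.05 (-0.24 to 0.15).

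Of the 10 fullest sites the lowest was chr3:28178799-28180050 on the plus strand, with 398 and 180 intervals, a difference of -0.53 (-0.80 to -0.28) that was -0.42 in XA041 and -0.35 in XB028. At 8 of the other 9 the difference was below 0 in XA041 and above 0 in XB028, following the shift between the runs as a whole. The exception was the chromosome 2 plus-strand site, at -0.57 and -0.02.

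Neighbouring sites were then read together. Sites compared that lay within 10000 bases of each other on 1 strand were joined into 650 stretches, a definition added after seeing the data, and 47 stretches held 5 or more sites. Summed over its sites, the PTBP2 share was 2-fold or more lower in Rosa-PTBP1 in 13 of the 47 (27.7%) and 2-fold or more higher in 0 (0.00%). With single-interval sites left out of the totals, 7 of the 47 were lower and 0 higher. These sums count a site listed at 0 as 0. Over the sites listed in Rosa-PTBP1 alone, which leaves out the lowest sites by construction, 4 of the 47 were lower and 0 higher, and the differences given below for stretches are these. Both alternatives were added after seeing the data.

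The lowest stretch lay on chromosome 3 from 29146383 to 29148636 on the plus strand. Its 7 sites held 371 wild-type intervals and 53 in Rosa-PTBP1. The 5 sites still listed held 307 and 53, a difference of -1.92 (-2.37 to -1.50). From 5′ to 3′ the wild-type sites held 22, 27, 141, 40, 84, 42 and 15 intervals, and the Rosa-PTBP1 sites 0, 2, 23, 12, 6, 0 and 10. The share was 2-fold or more lower at each listed site except the one at the 3′ end, where the difference was 0.05 (-1.29 to 1.28). FLAG-PTBP1 was listed at each of the 7 sites in Rosa-PTBP1, with 15, 32, 123, 41, 81, 46 and 22 intervals. The wild-type FLAG libraries held 2 and 0 intervals over the whole stretch.

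Other low stretches also held sites listed at 0, and their listed sites differed less. On chromosome 18 from 16913519 to 16915600 on the minus strand, 5 sites held 110 and 17 intervals and 3 of them were listed at 0. The other 2 held 42 and 17, a difference of -0.69 (-1.60 to 0.15) whose interval includes an equal share. On chromosome 12 from 110797188 to 110803711 on the plus strand, 6 sites held 154 and 30. The 4 listed sites held 87 and 30, a difference of -0.93 (-1.58 to -0.31). Wild-type FLAG replicates 1 and 2 held 9 and 42 intervals over this stretch. On chromosome 1 from 186814290 to 186818421 on the minus strand, 5 sites held 133 and 29, and the 4 listed sites 111 and 29, a difference of -1.33 (-1.97 to -0.73). On chromosome 15 from 68782650 to 68789374 on the plus strand, 8 sites held 226 and 67, and the 7 listed sites 205 and 67. Their difference of -1.003 (-1.42 to -0.60) was at the 2-fold limit. FLAG-PTBP1 in Rosa-PTBP1 held 217, 102, 83 and 353 intervals over these 4 stretches, in the same order. On chromosome 14 from 40191739 to 40202611 on the minus strand all 10 sites were listed, with 453 and 144 intervals. Their difference was -1.04 (-1.32 to -0.77), and -0.89 with single-interval sites left out of the totals.

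The stretch with the highest sum lay on chromosome 3 from 80494644 to 80495801 on the minus strand. Its 6 sites held 364 and 367 intervals, a difference of 0.62 (0.41 to 0.83), which was 0.53 in XA041 and 0.74 in XB028. Its first and second sites by position held most of the intervals, at 167 against 178 and 120 against 132. The fourth was 2-fold or more higher, at 16 against 22, and the fifth 2-fold or more lower, at 29 against 8.

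The stretch with most sites lay on chromosome 2 from 6724945 to 6792916 on the minus strand, with 50 sites. It held 2641 wild-type and 1424 Rosa-PTBP1 intervals, and its 49 listed sites had a summed difference of -0.26 (-0.36 to -0.17). Inside it, 8 sites were 2-fold or more lower, 1 was higher and the other 41 lay within 2-fold. Its fullest sites, chr2:6776945-6778505 with 451 and 279 intervals and chr2:6779067-6780443 with 429 and 255, differed by -0.08 (-0.30 to 0.14) and -0.14 (-0.37 to 0.09). Close by, chr2:6782617-6782773 held 32 wild-type intervals and was listed at 0, and chr2:6790319-6790561 was the higher site described above. By ratio these are the lowest and the highest of the 50 sites. The first is a listing at 0 and the second held 3 wild-type intervals, so no direction is read from the pair. Wild-type FLAG replicates 1 and 2 held 90 and 341 intervals over the whole stretch, so it also gathers background. At chr2:6776945-6778505 the level in replicate 2 was 51.2, above PTBP2 at 43.3 in wild type and 40.9 in Rosa-PTBP1. At chr2:6779067-6780443 the level in replicate 2 was 19.8, below PTBP2 at 41.2 and 37.4.

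The stretch with most intervals, on chromosome 19 from 5796091 to 5802356 on the minus strand, had 14 sites with 3018 and 2087 intervals. Its summed difference was 0.08 (-0.003 to 0.16). Wild-type FLAG replicate 2 held 4092 intervals there, so the region is also high in a library without FLAG-PTBP1.

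**Figure D4:**
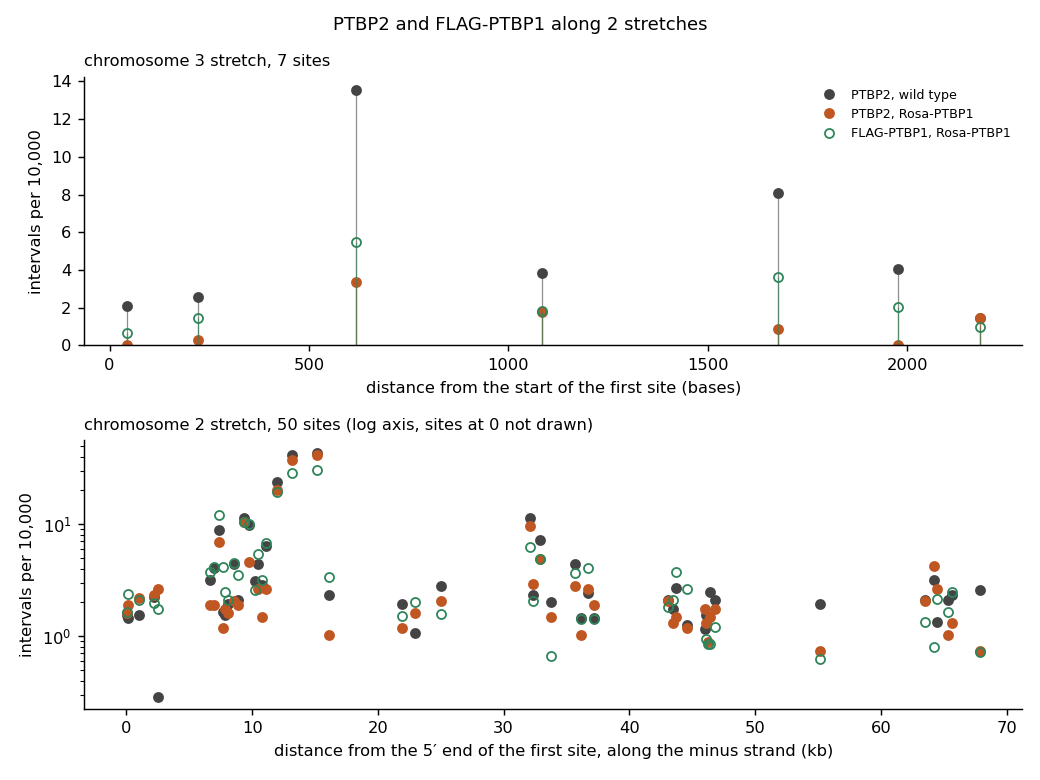
Intervals per 10000 of PTBP2 in wild type (grey), PTBP2 in Rosa-PTBP1 (orange) and FLAG-PTBP1 in Rosa-PTBP1 (open green) at each site of the lowest stretch, on chromosome 3 (linear axis), and of the stretch with most sites, on chromosome 2 (log axis), against distance along the strand. On chromosome 3 PTBP2 in Rosa-PTBP1 lies below wild type at the first 6 sites, and on chromosome 2 the 2 fullest sites nearly coincide.

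FLAG-PTBP1 was present at nearly all PTBP2 sites, whichever way PTBP2 differed. Chromosome 10 was left out here because the FLAG Rosa-PTBP1 list is sparse on it, which left 1088 sites. FLAG-PTBP1 of the Rosa-PTBP1 library was listed at 56 of 59 sites that lacked PTBP2 in Rosa-PTBP1 (94.9%), 168 of 175 that were lower but listed (96.0%), 728 of 759 within 2-fold (95.9%) and 87 of 95 that were higher (91.6%). Its median level in the same order was 1.12, 1.34, 1.34 and 0.80 per 10000. In this library the median at lower, listed sites was the same as within 2-fold. The loxp library gave medians of 1.11, 1.46, 1.40 and 0.99, so there the lower, listed sites lay slightly above those within 2-fold. Whether FLAG-PTBP1 bears on the PTBP2 differences was not tested.

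Grouping sites by the ratio also groups them by wild-type PTBP2, since a high ratio needs a low wild-type share. The median wild-type PTBP2 share, over all chromosomes kept, was 2.35 per 10000 at sites listed at 0 in Rosa-PTBP1, 2.40 at lower sites, 2.21 within 2-fold and 1.10 at higher sites. Across the 1088 sites, Spearman's rho was 0.66 between wild-type PTBP2 and FLAG-PTBP1 levels and -0.09 between the PTBP2 difference and the FLAG-PTBP1 level. These are descriptions over sites chosen for their PTBP2 counts. A wild-type FLAG library held an interval at 7 (replicate 1) and 3 (replicate 2) of the 59 sites listed at 0, and at 211 and 90 of all 1088.

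**Figure D5:**
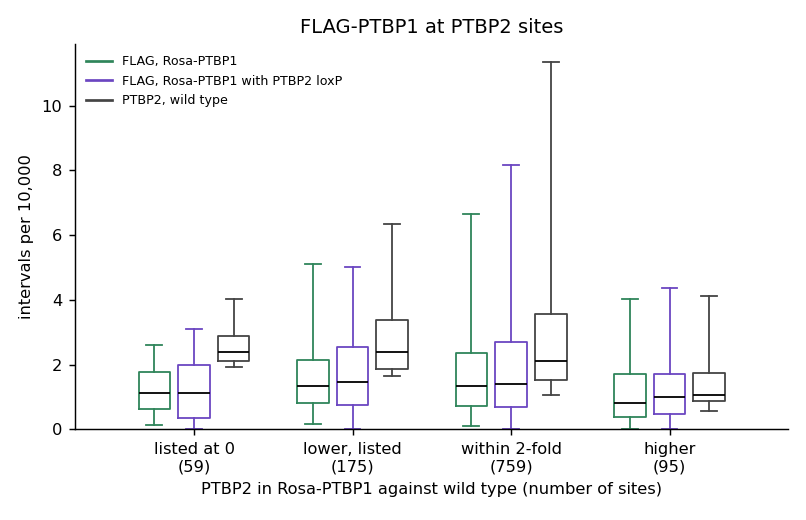
Intervals per 10000 of FLAG-PTBP1 in Rosa-PTBP1 (green), of FLAG-PTBP1 with PTBP2 loxp alleles (purple) and of wild-type PTBP2 (grey) at PTBP2 sites grouped by their difference, chromosome 10 left out. Boxes span the quartiles with the median as a line, and whiskers the percentiles 5 and 95; FLAG-PTBP1 medians are close in the first 3 groups and lower in the last, as is wild-type PTBP2.

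The position of PTBP2 within a site was compared where both genotypes held 30 or more intervals. At these 185 sites, with a median length of 322 bases, the point of highest coverage moved by a median of 12 bases, and at 87 sites (47.0%) by 10 bases or less. Between FLAG-PTBP1 in Rosa-PTBP1 and wild-type PTBP2 the median was 16 bases over 299 sites. Between runs of 1 library, with fewer intervals and longer sites, it was 90 bases over 59 sites in wild type and 49 over 71 in Rosa-PTBP1. Within a run, between genotypes, it was 55 bases over 50 sites in XA041 and 36 over 75 in XB028. The sets of sites differ in depth and length, so these values are not ordered. The most used 5′ end was the same base at 15 of the 185 sites (8.11%) between genotypes. It was the same at 1 of 50 in XA041 and 4 of 75 in XB028 between genotypes, at 7 of 59 (11.9%) between wild-type runs and at 1 of 71 (1.41%) between Rosa-PTBP1 runs.

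The differences were spread over the genome. The share of sites that were 2-fold or more lower ran, over the nuclear chromosomes, from 8.77% of 57 sites on chromosome 11 to 28.2% of 71 on chromosome 17, and each nuclear chromosome compared had 2 to 8 sites listed at 0. Chromosome 14 had the lowest median difference, -0.45 over 139 sites. On the mitochondrial genome 6 sites were compared, of which 2 were higher and 0 lower.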

How the data were processed

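The 6 deposited lists of read intervals were read, of which the 2 PTBP2 lists make the comparison. Per the submitters' processing notes reads were aligned with Bowtie to mm9; the lists hold significant CLIP reads, per the file headers, and their names add a false discovery rate. No caller or level is given in the sources used here. The values deposited are start and end positions, with no score or count. The run was read from the read name. Lines were collapsed to distinct intervals; each carries 1 read name. Intervals were merged into union sites, counted per library and run, and divided by the library's kept intervals (Python 3.11.15, pandas 2.3.3, numpy 2.4.6, scipy 1.17.1). Intervals of ratios are exact conditional binomial 95% intervals, without a pseudocount; read intervals at 1 site are not independent, so they are too narrow. The counting was tested on simulated data. Named sites are the 10 highest and 10 lowest ratios on the same side in both runs, and the 10 with most intervals; at 0 in Rosa-PTBP1 the rank is that of the wild-type count. The members, lists and rules were chosen with earlier results of these data known. Gene lists, marker lists and motifs planned for an mm9 annotation were not analysed here. Alternatives changed the run, unit, minimum, scaling, joining, stretches and depth.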

Additional observations from a re-analysis of the deposited data

How the results depend on the processing

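Counts of sites moved with the minimum and the depth, and so did the number of sites compared. The main counts were 261 lower, 112 higher and 64 listed at 0 of 1211 sites. A minimum of 10 intervals gave 954, 317 and 581 of 2855, and a minimum of 50 gave 35, 26 and 1 of 361. The lower sites were 21.6% of the main set, 33.4% at a minimum of 10 and 9.70% at 50. From XA041 alone the 3 counts were 27, 22 and 0 of 324 sites. From XB028 alone 99 were lower and 28 listed at 0 of 678. With the larger library thinned to the smaller, 137 of 882 were lower (15.5%) and 13 listed at 0. File lines in place of distinct intervals gave 424 lower of 1481 (28.6%), and distinct 5′ ends 39 listed at 0 of 994. Sites taken by mean share gave 32 listed at 0 of 1149, and totals without single-interval sites 171 higher of 1211. Median scaling, joining within 50 bases, leaving out empty 1-Mb stretches and leaving out the mitochondrial genome kept these 3 counts within 1.5 times. Of all sites, 20.8% of wild-type and 17.9% of Rosa-PTBP1 sites overlapped the other list. For wild type this was 24.0% in XA041, 20.1% in XB028, 22.7% after thinning and 27.1% for sites of 5 or more intervals. For Rosa-PTBP1 it was 15.8%, 33.5%, 17.2% and 64.3%. The cause of these moves was not tested. Stretches of 5 or more sites that were lower fell from 13 to 7 with totals without single-interval sites and to 4 over listed sites. Of the highest sites, chr16:77645380-77645575 turned to -0.77 with XA041 alone. The named sites were chosen for their ratios, so their values under alternatives are no sign of stability. A wild-type FLAG interval lay at 21.9% of the sites compared, and at 7.60% to 18.9% with 1 replicate left out. No paired analysis was possible because each PTBP2 genotype has 1 library. Motif content and sums by gene were not run, as no mm9 sequence or annotation was used.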

Other observations

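The chromosomes left out were summarised in the same way. On chromosomes 4 to 9 and X, 346 union sites held 20 or more PTBP2 intervals, and 266 of them (76.9%) were listed at 0 in Rosa-PTBP1, against 64 of 1211 (5.28%) on the chromosomes kept. At the 80 that were listed, levels scaled to the kept chromosomes differed by a median of -0.08, against -0.06 at the 1147 listed sites of the kept chromosomes. Of the 80, 16 were 2-fold or more lower and 9 higher. These values cover only sites that were listed. Whether missing listings on the chromosomes left out and on those kept have a common cause was not tested. Chromosome 6 had 54 of 58 sites listed at 0, chromosome 8 41 of 47 and chromosome 4 32 of 58.

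The sites named next were picked for their high PTBP2 counts on those chromosomes. The minus-strand site chrX:100661940-100663367 held 1708 wild-type intervals (494 in XA041, 1214 in XB028) and 1595 in Rosa-PTBP1 (762 and 833), or 164 and 234 per 10000, a difference of 0.51 (0.41 to 0.61). On chromosome 9 the minus-strand site chr9:49523660-49524142 held 135 and 97, a difference of 0.14 (-0.26 to 0.52), and chr9:49578431-49579330 held 185 and 85, a difference of -0.51 (-0.90 to -0.13). The plus-strand site chr8:127355155-127355414 held 71 (19 and 52) and 114 (52 and 62), a difference of 1.29 (0.85 to 1.74). On these chromosomes 80 of the 346 sites were listed in Rosa-PTBP1, and the levels of the sites named do not stand for the rest. Why some sites were listed there and most were not was not tested.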
